A study of Mus musculus with 8 samples.

Results

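The population described here is the set of mouse dorsal root ganglion (DRG) neurons labelled through Cre recombinase in Trpv1-IRES-Cre mice, taken by itself. Its members are the 4 libraries of that genotype, out of 8 libraries in the series, and they were chosen by genotype label alone. No comparison with another genotype was made, so no groups were tested against each other and every value is a description of these 4 libraries.

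DRG neurons carry touch, temperature, pain and itch from the body to the spinal cord. Trpv1 encodes a cation channel opened by heat, acid and capsaicin, and it is a hallmark of small-diameter nociceptors, many of which release the peptides CGRP and substance P from their endings. Small DRG neurons are usually divided into a peptidergic class and the non-peptidergic classes NP1 (Mrgprd), NP2 (Mrgpra3) and NP3 (Nppb and Sst), of which the latter pair are linked to itch. Excitability in such cells depends on sodium channels that resist tetrodotoxin, and their responses to injury and inflammation depend on receptors for growth factors, cytokines, proteases, lipids and amines.

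All 4 samples carried the allele Trpv1tm1(cre)Bbm/J on the strain C57Bl/6, in which Cre is made from the Trpv1 locus. Pups were given 10 µL of an adeno-associated virus, by intraperitoneal injection at postnatal day 2. The construct was AAV9-CAG-FLEX-eGFP-WPRE in some mice and carried tdTomato in place of eGFP in others, and the labels do not say which library had which. Recombination of such a reporter is permanent, so a cell is labelled if it made Cre at any time after the virus arrived, whether or not it still transcribed Trpv1 when picked. At 3 to 5 weeks of age, mice of both sexes gave 150 to 250 fluorescent cells each, picked by hand after dissociation of the ganglia. The labels describe 4 independent samples per genotype, named replicates 1 to 4 here. RNA was pooled over the picked cells, so each value is a mean over the pool and cannot show which genes share a cell. In such pools, fewer cells of a type and less RNA per cell cannot be told apart.

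The replicates held 8965510, 7419027, 9568508 and 9157707 gene counts, and between 14513 and 15840 genes had a count. Levels are given as counts per 1000000 (CPM), a gene's count divided by the library's total. Between genes, levels are compared only as CPM per kb, which divides by the length of the gene's exons. Means are given ± SD over the 4 libraries (n = 4 throughout). A count of 0 in all 4 libraries allows up to 0.0854 CPM (3 counts of the 35110752 summed), which covers counting error only, since reads without molecular identifiers are not independent molecules. Replicate 3 stood apart from the others. Mitochondrially encoded genes took 40.2% of its counts, against 25.4%, 25.9% and 28.1% in replicates 1, 2 and 4. It was also the lowest library for 41.8% of the genes present in all 4, a share that dropped to 26.6% when mitochondrial genes were left out of the totals.

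A gene is called present where it reached 5 CPM in each of the 4 libraries, not counted where all 4 held 0, and scarce in between. Of 43372 gene symbols, 6508 were present, 13076 scarce and 23788 not counted. By this rule 29.9% of the 20731 protein-coding symbols were present, and 31.6% of protein-coding symbols were not counted. These shares are the background for every count of present or missing members below.

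All 6 genes that mark the population were present. Calca, which encodes CGRP, was counted at 1179, 1093, 914 and 1598 CPM in replicates 1 to 4, with a mean of 1196 ± 290.2 CPM. Tac1, the precursor of substance P, stood at 371, 405, 271 and 603 CPM in the same order (413 ± 139 CPM), and Adcyap1, which encodes the peptide PACAP, at 250.2, 224, 176 and 281 CPM (233 ± 44.3 CPM). All 3 peptide genes were highest in replicate 4 and lowest in replicate 3 by CPM. With mitochondrial genes left out of the totals, replicate 2 was the lowest for Calca, while replicate 3 remained the lowest for Tac1 and Adcyap1.

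Trpv1 itself, on GRCm38 chromosome 11, 73234292 to 73261242, plus strand, was counted at 141, 194, 132 and 317 CPM, with a mean of 196 ± 85.1 CPM. Trpa1, the channel for mustard oil and other irritants, was counted at 175, 216, 119 and 247 CPM (189 ± 55.6 CPM). Both channel genes followed the peptides, with the highest value in replicate 4 and the lowest in replicate 3. Kit, the receptor for stem cell factor and a surface marker of part of the peptidergic class, stood at 173, 261, 158 and 139 CPM (183 ± 54 CPM) and broke that order, with replicate 2 highest and replicate 4 lowest. With mitochondrial genes left out of the totals, replicate 1 was the lowest for Trpv1, while replicate 3 remained the lowest for Trpa1. Per kb of exon, Calca led the 6 markers with 710.1 ± 172 CPM per kb, a share of 70.4% ± 2.16 of their sum, and ranked 8 among all protein-coding genes outside the mitochondrial genome. Tac1 followed at 121 ± 40.9 CPM per kb (rank 123), then Adcyap1 at 61.6 ± 11.7 CPM per kb (rank 314), Trpv1 at 53.1 ± 23.1 CPM per kb (rank 378), Trpa1 at 44.4 ± 13 CPM per kb (rank 501) and Kit at 20.5 ± 6.06 CPM per kb (rank 1286). Calca and Tac1 each lay above the next gene in every library. The ranges of Adcyap1, 46.7 to 74.3 CPM per kb, of Trpv1, 35.8 to 86 CPM per kb, and of Trpa1, 27.9 to 58 CPM per kb, overlapped. Within a library, Adcyap1 lay above Trpa1 in all 4, while the order of Trpv1 against either of them changed between libraries.

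**Figure D1:**
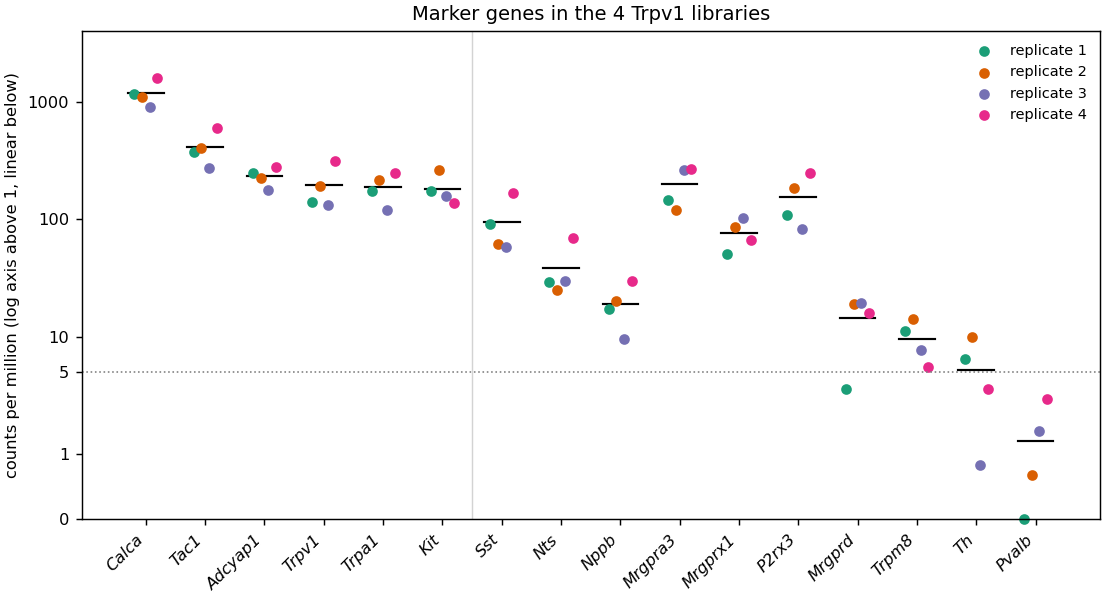
CPM (vertical axis, logarithmic above 1 and linear below) of the 6 marker genes and of 10 genes of other sensory neuron classes, 1 point per library and a bar at the mean of 4. The dotted line marks 5 CPM. The 6 markers lie between 119 CPM (Trpa1, replicate 3) and 1598 CPM (Calca, replicate 4), while Th and Pvalb lie at or under 10.0 CPM in every library.

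Calca and its neighbour Calcb, which encodes another form of CGRP, have near-identical stretches, and reads from those stretches cannot be assigned with certainty. Both lie on chromosome 7, Calca on the minus strand from 114631478 to 114636357 and Calcb on the plus strand from 114718643 to 114723365 (GENCODE M21, GRCm38). The longest run that their coding sequences share is shown because a read that lies within it matches both genes. It has 61 bases, begins at base 226 of 387 in the Calca coding sequence and at base 307 of 471 in that of Calcb, and spans an exon junction in both. In the genome the run lies between 114632541 and 114634469 for Calca and between 114721711 and 114722033 for Calcb.
Calca and Calcb shared run: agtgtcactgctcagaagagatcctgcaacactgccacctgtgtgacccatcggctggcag
Only 12 of 1678 windows of 50 bases in the Calca transcripts also occurred in another gene, 0.715% of the total, and all 12 were in Calcb. Calcb was counted at 104, 79.3, 63.4 and 57.2 CPM (75.9 ± 20.6 CPM), so per kb it stood at 60.01 ± 16.3 against 710.1 ± 172 CPM per kb for Calca. None of the windows of Trpv1, Tac1, Adcyap1, Kit or Trpa1 occurred in another gene.

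Outside the mitochondrial genome, a gene of the axonal cytoskeleton had the highest level per kb among protein-coding genes. Map1b, a microtubule-associated protein of axons, ranked 1 per kb with 1292 ± 47.8 CPM per kb and was almost level across libraries, at 20196, 20016, 20054 and 21597 CPM. With mitochondrial genes left out of the totals, Map1b was less level and was highest in replicate 3. Calm2, which encodes calmodulin, ranked 2 with 1188 ± 90.2 CPM per kb. Nefl, the light neurofilament subunit, ranked 3 with 987 ± 254 CPM per kb, and Tuba1a, an alpha-tubulin, ranked 7 with 742 ± 279.8 CPM per kb. The tubulin value is uncertain, since 75.5% of the Tuba1a windows of 50 bases occurred in other genes, as did 31.8% of those of Nefl.

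The other genes among the 20 highest per kb had varied roles. Cd24a, a small surface glycoprotein, ranked 4 at 812 ± 15.7 CPM per kb, and the heat shock protein gene Hsp90ab1 ranked 6 at 795 ± 281 CPM per kb. Ywhae, Ywhaz and Ywhab, which encode 14-3-3 adaptor proteins, ranked 5, 15 and 20. Pirt, a membrane protein of sensory neurons that binds TRPV1, ranked 12 with 512 ± 117 CPM per kb. Its CPM values of 2657, 2244, 1481 and 2222 CPM were lowest in replicate 3.

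Among the remaining ranks, Reep5, an endoplasmic reticulum shaping protein, stood at 532 ± 69.5 CPM per kb (rank 11), Ndrg4 at 476 ± 93.4 CPM per kb (rank 14) and Fstl1, a secreted glycoprotein, at 442 ± 94.3 CPM per kb (rank 16). S100a11, a calcium-binding protein, stood at 437 ± 92.3 CPM per kb (rank 17), Cdr1 at 399 ± 263 CPM per kb (rank 18) and the vesicle traffic protein Rab6b at 383 ± 49.4 CPM per kb (rank 19). All 1238 windows of Cdr1 occurred in the overlapping gene C230004F18Rik, so its reads cannot be assigned to 1 gene, and 41.1% of those of S100a11 occurred elsewhere. Gh (rank 10) and Prl (rank 13), the pituitary hormones growth hormone and prolactin, also reached these ranks, at 1009, 739.6, 139 and 0 CPM and at 571, 931, 1201 and 0 CPM. They held 0 counts in replicate 4 and are described with the other pituitary genes below.

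**Figure D2:**
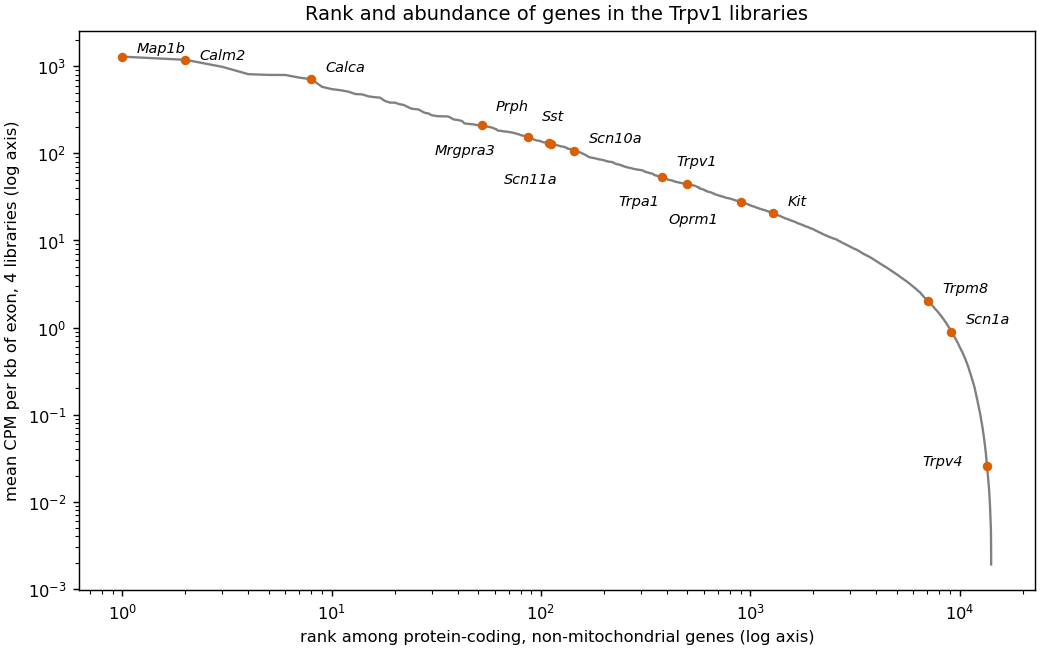
Mean level in CPM per kb of exon (vertical axis, logarithmic) against rank (horizontal axis, logarithmic) for the 14161 protein-coding, non-mitochondrial genes with at least 1 count, with selected genes as points. Map1b ranks 1 at 1292 CPM per kb, Calca 8, Scn11a 112 and Trpv1 378, while Trpm8 ranks 7041 and Scn1a 9149.

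Of 33 listed neuropeptide genes, 10 were present (30.3%), close to the 29.9% of protein-coding genes. Another 10 were scarce and 13 were not counted, where 31.6% of protein-coding genes were not counted. Besides Calca, Tac1, Adcyap1 and Calcb, the present members were Sst, Nmb, Gal, Nts, Cartpt and Nppb. Sst, the precursor of somatostatin, stood at 91.4, 61.6, 57.8 and 168 CPM (94.7 ± 51.2 CPM), and at 131 ± 71 CPM per kb it was the second gene of the list per unit length. Replicate 4 held the highest Sst value, and the ranges of Sst, 80.2 to 233 CPM per kb, and of Tac1, 79.8 to 177 CPM per kb, overlapped, with Sst ahead in replicates 1, 3 and 4 and Tac1 in replicate 2.

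Nppb, the natriuretic peptide that marks the NP3 class with Sst, was counted at 17.1, 20.1, 9.61 and 29.7 CPM (19.1 ± 8.32 CPM). Nts, the precursor of neurotensin, stood at 29.4, 25.2, 29.99 and 69 CPM (38.4 ± 20.5 CPM), and Nmb, which encodes neuromedin B, at 54.3, 37.5, 46.2 and 70.3 CPM (52.1 ± 14 CPM). Nts and Nppb were highest in replicate 4, as Sst was. Gal, the precursor of galanin, stood at 58.9, 28, 31.1 and 19.98 CPM and Cartpt, the precursor of CART peptides, at 54.7, 24.8, 30.5 and 41.2 CPM. Under 1 CPM in every library were 18 members, among them Grp, Npy and Vip, of which Npy and Vip held no count at all. Pomc, the precursor of ACTH and beta-endorphin, was the sole listed peptide gene with a mean of at least 10 CPM whose highest library exceeded 4 times the lowest, at 167, 63.1, 0.732 and 0 CPM. This kind of spread was seen in 22.7% of all genes with such a mean. The opioid precursors Penk and Pdyn reached at most 0.223 and 0.109 CPM in any library.

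Genes for storing and cutting peptides were nearly all present, 13 of 15. Scg2, the granin precursor secretogranin II, led the list with 361 ± 77 CPM per kb (912, 1018, 635 and 1068 CPM), followed by Scg3 at 179 ± 13.3 CPM per kb, Chgb at 104 ± 65 CPM per kb and the carboxypeptidase Cpe at 70.1 ± 19.7 CPM per kb. Scg2 held 40.1% ± 3.3 of the summed level per kb and led in each of the 4 libraries. Of the prohormone convertases, Pcsk2 stood at 80.8, 65.5, 100.02 and 192 CPM and Pcsk1 at 24.6, 20.4, 13.1 and 16.8 CPM. Pam, which amidates peptides such as CGRP and substance P, stood at 97.2, 116, 60.7 and 99.7 CPM. Chga ranged from 7.63 to 40.2 CPM, Scg5 from 3.91 to 58.7 CPM and the vesicle priming gene Cadps2 from 3.71 to 25.6 CPM, the 3 members that varied more than 4-fold.

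TRP channels were led by the pair Trpv1 and Trpa1, and 11 of 19 members were present. Per kb, Trpv1 held 39.7% ± 6.81 and Trpa1 33.9% ± 3.18 of the list's sum. Trpv1 was ahead in replicates 2 to 4 and Trpa1 in replicate 1, so the 2 channels differed by less than their spread. No other TRP gene came near, and Trpc1 stood at 4.22 ± 1.81 CPM per kb. Trpm3, a heat-gated channel, was counted at 95.5, 113, 78.6 and 94.2 CPM (95.4 ± 14.2 CPM), but over its long exons this made 3.9 ± 0.579 CPM per kb. The cold and menthol channel Trpm8 was present at 11.3, 14, 7.73 and 5.57 CPM, just above the threshold in replicate 4, and ranked 7041 per kb. Trpv2 stood at 19.4, 13.7, 13.6 and 18.8 CPM, and Trpm2 was the variable member with a range of 7.11 to 36.7 CPM. Trpv3, Trpv4 and Trpm5 lay under 1 CPM in every library, and Trpm5 held no count.

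Among 10 genes of mechanical sensing, 5 were present: Tmem150c, Tmem63b, Piezo2, Tmem63c and Tmem63a. Piezo2, the channel of light touch and proprioception, was counted at 299, 297, 274 and 193 CPM (266 ± 49.6 CPM) and stood at 15.5 ± 2.89 CPM per kb. Tmem150c led the list by mean with 19.8 ± 8.12 CPM per kb, but Piezo2 led in replicate 3 and Tmem63b in replicate 4, and without replicate 2 the share of Piezo2 (26.2%) exceeded that of Tmem150c (26.1%). Tmem63b ranged from 11.5 to 144 CPM and Tmem63a from 6.9 to 35.8 CPM, both over 4-fold. Piezo1 was scarce at 3.23, 7.41, 0.627 and 0.655 CPM, and Tmc1, Tmc2 and the Piezo2 modulator Stoml3 were under 1 CPM in every library.

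Acid-sensing ion channels were led by Asic3, counted at 48.9, 39.6, 34.2 and 25.3 CPM, with 60.1% ± 13.1 of the summed CPM per kb. Asic2 (23.8, 30.1, 19.3 and 48.4 CPM) led in replicate 4, and Asic1 stood at 8.37, 18.7, 20.1 and 15.6 CPM. Asic4 was counted in replicate 2 alone, at 1.75 CPM, and Asic5 was not counted. Of the 7 P2X receptors, which are cation channels gated by ATP, only P2rx3 was present, at 109, 183, 83.5 and 246 CPM (155 ± 73.9 CPM). It held 91.1% ± 3.57 of the summed level per kb and led in each library, with replicate 4 highest and replicate 3 lowest. Its partner P2rx2 was scarce at 2.9, 0.539, 5.85 and 4.04 CPM, and P2rx1 was not counted.

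Per kb, voltage-gated sodium channels were the most abundant ion channel genes listed. Of 10 alpha subunits 7 were present, and 4 of them, Scn9a, Scn10a, Scn11a and Scn7a, each reached at least 532 CPM in every library. Scn10a, the tetrodotoxin-resistant channel Nav1.8, was counted at 791, 947, 702 and 994 CPM (859 ± 136 CPM). Scn11a, the resistant channel Nav1.9, stood at 653, 936, 595 and 871 CPM (763 ± 165 CPM), and Scn9a, Nav1.7, at 1164, 1092, 1061 and 794 CPM (1028 ± 162 CPM). Between the lowest and the highest library none of the 3 changed by more than 1.57-fold (on the CPM + 1 scale). Scn7a, a sodium-sensing relative, was counted at 629, 545, 712 and 532 CPM.

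Per kb the order was Scn11a with 129 ± 27.8 CPM per kb, Scn10a with 108 ± 17.1 CPM per kb, Scn7a with 82.4 ± 11.4 CPM per kb and Scn9a with 80.5 ± 12.7 CPM per kb. Scn11a led in each library with 31.2% ± 4.74 of the sum, and the last 2 did not differ beyond their spread. This order depends on the length used: over the longest coding sequence Scn9a led with 28.5%, against 23.7% for Scn11a. Scn8a, Nav1.6 of large axons, was counted at 93.8, 67.5, 80.1 and 96.7 CPM. Scn1a, Nav1.1 of myelinated neurons, was scarce at 4.35, 1.21, 23.9 and 10.5 CPM, and the muscle channel Scn4a at 1.0, 0.944, 2.51 and 8.74 CPM.

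Partners of sodium channels were led by Fgf13, an intracellular FGF that binds the channel tail, at 441, 340.3, 667 and 483 CPM. Fgf13 held 59.4% ± 6.86 of the list's level per kb, followed by Scn3b with 17.9% ± 2.6, Scn2b at 19 ± 8.4 CPM per kb and Fgf12 at 15.1 ± 1.08 CPM per kb. Scn4b, a subunit tied to resurgent current, varied from 6.33 to 50.5 CPM, with replicate 2 far above the others.

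Calcium channel alpha-1 subunits were mostly of the high-voltage type. Cacna1b, the N-type channel Cav2.2 of presynaptic endings, was counted at 401, 359.6, 282 and 381 CPM and Cacna1c, the L-type channel Cav1.2, at 436, 429, 342 and 421 CPM. Per kb of exon Cacna1b held 51.5% ± 3.08 and Cacna1c 27.8% ± 2.16, but over the longest coding sequence Cacna1c led with 40.5% against 33.6%. Cacna1e stood at 7.9 ± 2.33 CPM per kb and Cacna1a, the P/Q-type channel, at 4.37 ± 1.42 CPM per kb. Cacna1h, the T-type channel Cav3.2, was scarce with a range of 3.49 to 45.3 CPM, high in replicates 1 and 2 and low in 3 and 4. Under 1 CPM in every library were 4 members, among them the other T-type genes Cacna1g and Cacna1i.

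Of 8 auxiliary calcium channel genes 6 were present. Cacna2d1, the subunit bound by gabapentin, was among the steadiest genes of the lists at 395, 444, 459 and 391 CPM (coefficient of variation, the SD over the mean, 8.17%). It held 35.3% ± 7.0 of the sum per kb, and Cacnb3 (111, 68.2, 50.1 and 156 CPM) led in replicate 4. Cacna2d2 stood at 21.7 ± 6.62 CPM per kb and Cacnb4 at 11.3 ± 3.46 CPM per kb.

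Potassium channel families differed in how evenly their members shared the level. Kcnb2, the delayed rectifier Kv2.2, was counted at 983, 1115, 1318 and 944 CPM, had the highest level per kb of any potassium channel gene listed (71.9 ± 11.1 CPM per kb) and held 54.4% ± 7.62 of its list per kb. The silent subunit Kcng3 followed with 35.7 ± 24.8 CPM per kb but varied from 42.4 to 214 CPM, then Kcnv1 with 9.29 ± 2.5 CPM per kb and Kcns3 with 8.97 ± 6.33 CPM per kb. Kcnh7, a channel of the ERG family, stood at 458, 509.5, 539 and 518 CPM and was one of the steadiest listed genes (6.79% coefficient of variation). It held 61.2% ± 2.44 of the KCNQ and KCNH list and led in each library, and 5.36% of its windows of 50 bases occurred in other genes.

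Kcnq3, a subunit of the M-current, was scarce with a range of 2.23 to 23.6 CPM. Kcnq5 was present but varied from 13.5 to 95.5 CPM, and Kcnh6 and Kcnh1 stood at 5.01 ± 1.96 CPM per kb and 2.78 ± 1.7 CPM per kb. In the Kv1 list 6 of 11 were present, Kcnab2, Kcna1, Kcna4 and Kcna6 highest, at 16.8 ± 7.43, 14.2 ± 4.26, 12.2 ± 5.59 and 12.2 ± 3.76 CPM per kb. Their order changed between libraries, Kcna4 leading in replicate 2 and Kcna1 in replicate 3, and without replicate 4 Kcna1 led the list.

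In the list of Kv3 and Kv4 channels and their partners, 9 of 13 genes were present. Kcnd1, Kv4.1, stood at 225, 159, 142 and 256 CPM and its partners Kcnip3 and Kcnip4 at 181, 157, 65.4 and 141 CPM and 115, 129, 212 and 162 CPM. A different one of the 3 led in different libraries, Kcnip3 in replicates 1 and 2, Kcnip4 in replicate 3 and Kcnd1 in replicate 4. Dpp6, a subunit of Kv4 channels, stood at 16 ± 3.59 CPM per kb. Kcnc4 ranged from 18.6 to 87.7 CPM, Kcnip1 from 2.16 to 23 CPM and Kcnip2 from 4.18 to 21.6 CPM, while Kcnd2 stayed under 1 CPM on average at 0.481 ± 0.73 CPM.

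Of 13 K2P leak potassium channel genes, 9 were scarce and 3 were not counted, where 31.6% of protein-coding genes were not counted. Only 1 was present (7.69%, against 29.9% of protein-coding genes). That gene was Kcnk2, TREK-1, at 46.8, 68.2, 45.9 and 19.98 CPM. Kcnk18, TRESK, a channel typical of sensory neurons, was counted at 5.8, 1.89, 27 and 63.3 CPM and Kcnk3, TASK-1, at 30.004, 4.58, 4.49 and 19 CPM. Both varied over 4-fold, and without replicate 2 Kcnk18 led the list. Among HCN and activated potassium channels 5 of 11 were present, led in each library by Kcnt1, a sodium-activated channel, at 102, 82.8, 98.4 and 137 CPM. Kcnt2 stood at 5.49 ± 0.579 CPM per kb, while Hcn3 and Kcnn1 varied from 7.73 to 42.9 CPM and from 1.25 to 33.6 CPM. Hcn2, the channel linked to inflammatory pain, was scarce at 0.781, 1.48, 0.105 and 0.437 CPM.

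Chloride handling was led by Ano3 at 364, 488, 441 and 417 CPM, with 43.4% ± 6.62 of the list's level per kb. The calcium-activated chloride channels Ano1 and Ano2 were not counted. Clcn6 stood at 20.8 ± 4.06 CPM per kb and Clcn5 at 10.7 ± 3.19 CPM per kb. Slc12a2, NKCC1, which loads chloride into sensory neurons, was counted at 77, 163, 87.5 and 95.3 CPM, while the extruder Slc12a5, KCC2, reached at most 0.809 CPM. Best1 was low in replicates 1 to 3 and stood at 49.1 CPM in replicate 4, and Ano4 varied from 3.06 to 24.8 CPM.

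**Figure D3:**
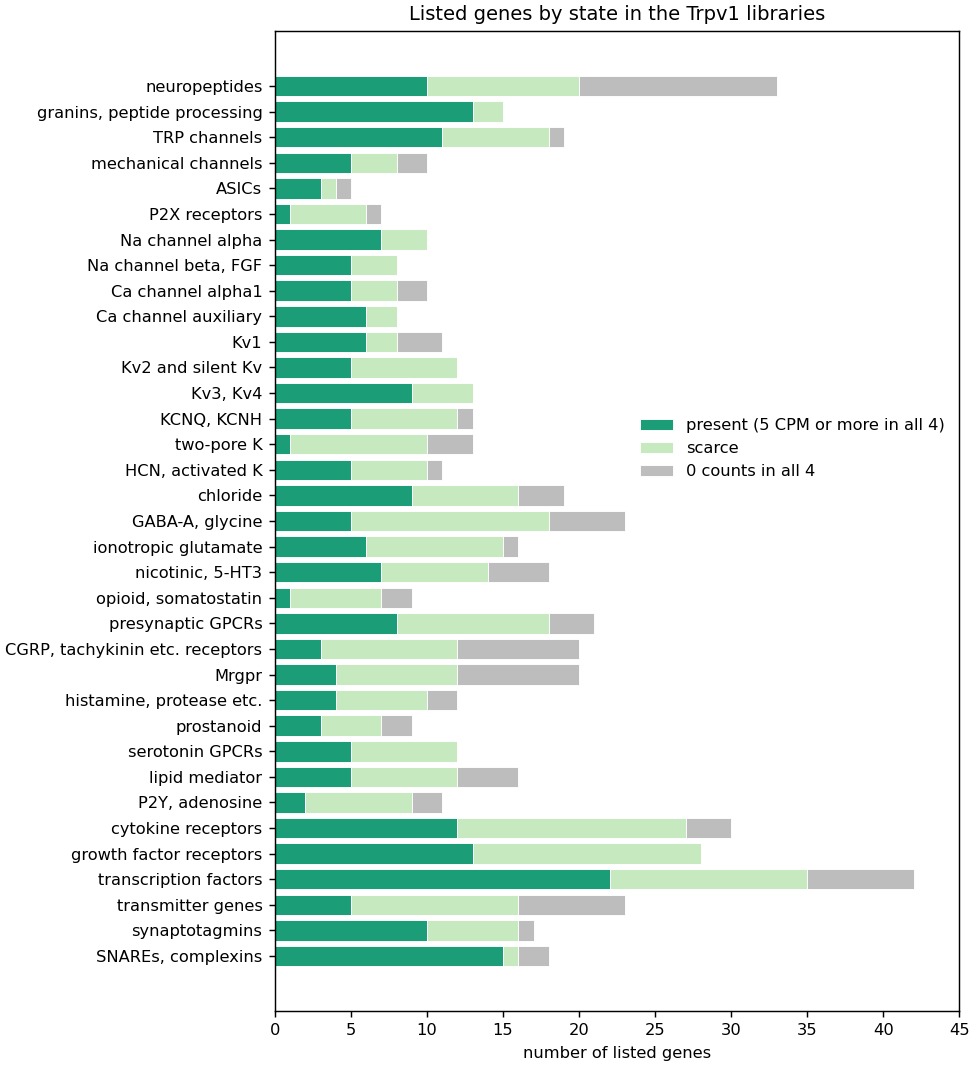
Number of listed genes (horizontal axis) in each of 35 families that were present, scarce or not counted in the 4 libraries. Granins and SNAREs were mostly present (13 of 15 and 15 of 18), whereas 1 of 13 two-pore potassium channels, 1 of 7 P2X receptors and 1 of 9 opioid and somatostatin receptors were.

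Of the receptor genes for fast transmitters, 5 of 23 for GABA-A and glycine, 6 of 16 for glutamate and 7 of 18 for acetylcholine and serotonin were present, against 29.9% of protein-coding genes. Gabrg3 and the alpha subunit Gabra2 stood at 4.58 ± 2.55 and 3.2 ± 1.47 CPM per kb. Glrb was present at 35.7, 59.7, 27.7 and 31.9 CPM, while the glycine receptor alpha genes reached at most 2.46 CPM on average (Glra2). Under 1 CPM in every library were 11 members, among them Gabra4, Gabra5 and Gabra6.

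Glutamate receptor genes were led by Gria4, an AMPA receptor subunit, at 135, 114, 154 and 92.2 CPM, with 41.1% ± 9.25 of the sum. Grik4 (10.3 ± 2.97 CPM per kb), Grin3a (5.43 ± 2.24 CPM per kb) and the obligatory NMDA subunit Grin1 (2.74 ± 0.859 CPM per kb) followed. Gria2, which sets the calcium permeability of AMPA receptors, stood at 17.5, 45.3, 44 and 27.1 CPM. The kainate subunit Grik1 was scarce and varied from 1.12 to 15.3 CPM. Grin2a, Grin2b and Grin2c were under 1 CPM in every library, and Grin2d was counted at 7.7, 0, 11.9 and 3.28 CPM.

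Nicotinic and 5-HT3 receptor genes were present for 7 of 18. The ganglionic pair Chrna3 and Chrnb4 stood at 169.99, 194, 109.9 and 103 CPM and at 173, 91.3, 78.3 and 138 CPM, and Chrnb3 at 157, 140.4, 111 and 174 CPM. Per kb these 3 and Htr3a (27.9, 63.6, 31.2 and 59.2 CPM) were close, at 32.2 ± 11.7 for Chrnb4, 27.4 ± 8.47 for Chrna3, 22.9 ± 4.28 for Chrnb3 and 21.8 ± 8.89 CPM per kb for Htr3a, and their order changed with the length used. Chrna6, a partner of Chrnb3, stood at 15.5, 37.1, 19.5 and 40.9 CPM. Chrnb2 varied from 5.24 to 35.4 CPM. Chrna1, Chrna5 and Chrna9 had means of 0.792, 0.518 and 0 CPM.

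Among receptors that inhibit release, the mu opioid receptor stood out from its family. Oprm1 was counted at 168, 218, 265 and 236 CPM (222 ± 40.6 CPM) and held 85.9% ± 4.49 of the summed level of opioid and somatostatin receptors per kb. Oprd1 and Oprk1, the delta and kappa receptors, were scarce at 6.58, 0.135, 3.24 and 0 CPM and 9.15, 4.31, 6.27 and 16.1 CPM. Sstr2 was counted at 0.112, 0.135, 7.52 and 5.35 CPM, so the receptors for somatostatin were scarce or not counted in a pool where Sst itself was present.

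Other inhibitory receptors on nerve endings were present for 8 of 21. Npy2r, a neuropeptide Y receptor, was counted at 189, 195, 151 and 132 CPM, and the subunits of the GABA-B receptor, Gabbr1 and Gabbr2, at 185, 184, 209 and 249 CPM and 234, 243, 157 and 236 CPM. Neither GABA-B subunit varied by as much as 2-fold between libraries, and their ranges overlapped per kb (23.7 to 32 CPM per kb and 23.5 to 36.3 CPM per kb). Npy1r stood at 48.7, 34.6, 42.3 and 179.6 CPM, with replicate 4 far above the rest, and led the list there. Adora1, the adenosine A1 receptor, was counted at 85.8, 99.1, 55.4 and 117 CPM and the cannabinoid receptor Cnr1 at 105, 52, 47.8 and 53.2 CPM. The alpha-2 adrenergic receptor Adra2a was scarce at 13.3, 15.1, 1.25 and 6.33 CPM, and 7 members were under 1 CPM in every library, among them Galr2, Npy5r and Cnr2.

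**Figure D4:**
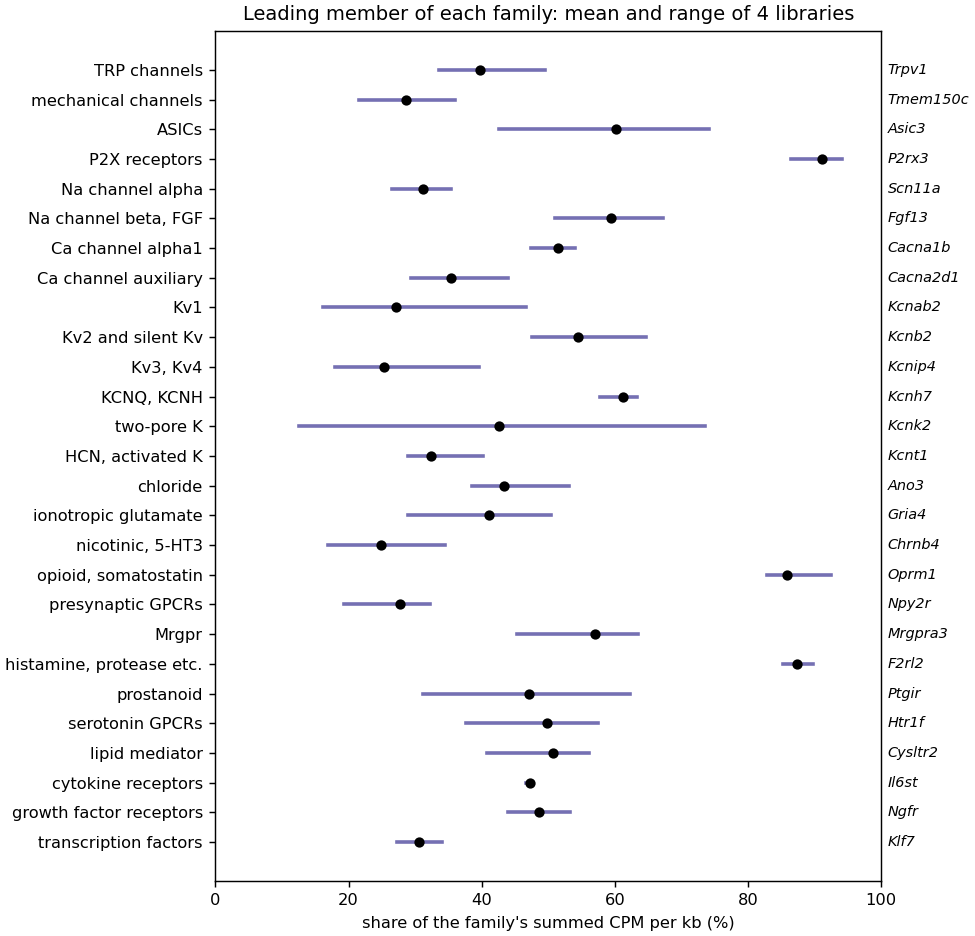
Share of each family's summed CPM per kb held by its leading member (horizontal axis, percent), as the mean (point) and the range (line) of the 4 libraries, with the gene named at the right. Oprm1, F2rl2 and P2rx3 hold at least 82.9%, 85.2% and 86.5% in every library, Il6st has the narrowest range, and Kcnk2 ranges widest.

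In a list of 20 genes for CGRP, tachykinin, PACAP, neurotensin and related receptors, 3 were present (15%, against 29.9% of protein-coding genes). Another 8 of the 20 were not counted, against 31.6% of protein-coding genes. The present ones were Npr2 (53, 39.5, 59.4 and 61 CPM), a natriuretic peptide receptor, Crcp (18, 7.01, 6.38 and 15.3 CPM) and Calcrl (15.5, 19.1, 19.96 and 8.3 CPM), the CGRP receptor core. Its partner Ramp1 held counts only in replicate 3, at 0.523 CPM, and Tacr1, the substance P receptor, held none. Adcyap1r1, the PACAP receptor, was counted at 33.2, 0.27, 0 and 0 CPM, all but a trace of it in replicate 1. Over the longest coding sequence Crcp led this list in place of Npr2.

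Mrgpr receptors, many of which respond to itch-inducing ligands, were led by the markers of the NP2 class. Mrgpra3, the chloroquine receptor, was counted at 146, 121, 261 and 271 CPM (199.6 ± 77.3 CPM) and Mrgprx1 at 51, 86.5, 102 and 66.8 CPM (76.7 ± 22.5 CPM). Mrgpra3 held 57% ± 8.06 of the family's level per kb, led in each library, and ranked 87 of all protein-coding genes, above Trpv1 at 378. Of its windows of 50 bases 7.14% occurred in related genes, so its count is less certain. Mrgpra2b (16.2, 15.2, 24.5 and 28.2 CPM) shared 81.2% of its windows with Mrgpra2a and cannot be told from it. Mrgprd, the marker of the NP1 class, was scarce at 3.57, 18.9, 19.2 and 15.9 CPM, low in replicate 1 alone. Mrgpre stood at 29.3, 14.3, 13.2 and 47.9 CPM. Of 20 members 8 were not counted, among them Mrgprb2, the receptor of mast cells.

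Receptors for mast cell and inflammatory mediators contained 1 gene far above the others. F2rl2, the protease-activated receptor PAR3, was counted at 385, 321, 467 and 529 CPM and held 87.4% ± 2.13 of its list per kb. F2rl1, PAR2, was counted at 24.8, 23.2, 11.7 and 31.9 CPM. The histamine receptor Hrh2 reached 7.14, 8.76, 5.12 and 10.2 CPM. Hrh1, the histamine receptor linked to itch, was scarce at 0.558, 8.9, 3.76 and 7.32 CPM. F2r, PAR1, and Ednrb, the endothelin B receptor that satellite glia also express, varied from 4.24 to 19 CPM and from 13 to 55.8 CPM. The bradykinin receptor Bdkrb2 was scarce at 0, 1.21, 0.209 and 0.764 CPM, and Bdkrb1 and Hrh4 were not counted.

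Of 9 prostanoid receptors 3 were present. Ptgir, the prostacyclin receptor, was counted at 82.4, 61.6, 51.1 and 43 CPM and Ptgdr at 31.6, 41.2, 39.9 and 49.5 CPM, and Ptgdr led in replicate 4. Ptger4, a receptor of prostaglandin E2, was present but varied from 9.61 to 46.6 CPM, and Ptger1 from 4.68 to 28.3 CPM. Ptger3 was scarce at 3.12, 0.404, 2.19 and 2.51 CPM.

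Serotonin receptors coupled to G proteins were led by 2 inhibitory types. Htr1f, the target of lasmiditan, was counted at 74.6, 48.3, 73.4 and 96 CPM and Htr1a at 85.2, 89.6, 53.5 and 66.1 CPM. Htr1f led in replicates 1, 3 and 4 and Htr1a in replicate 2. Htr1b, Htr2a and Htr5a were present with means of 14 ± 3.87 CPM, 16 ± 7.38 CPM and 13.4 ± 7.91 CPM. Htr7 and Htr2b had means of 0.164 and 1.68 CPM, and Htr1d was counted once at most, 0.105 CPM in its highest library.

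Lipid mediator receptors were led in each library by Cysltr2, a receptor of cysteinyl leukotrienes, at 149, 383, 149 and 170.5 CPM. S1pr3, a sphingosine 1-phosphate receptor, stood at 177, 212, 85.8 and 159.9 CPM and Lpar1 at 77.9, 59.98, 39.2 and 33.2 CPM. Cysltr2 and S1pr3 held 50.6% ± 6.85 and 25.6% ± 6.44 of the list's level per kb. S1pr1 was present at 15.6, 17.7, 7.84 and 6.66 CPM. Ptafr and Lpar6 varied from 6.99 to 47.3 CPM and from 1.23 to 62.7 CPM, Lpar6 through replicate 2 alone. Cysltr1, S1pr4 and Ltb4r2 were not counted. Of the receptors for ATP and adenosine that couple to G proteins, Adora1 and P2ry1 (18.9, 32.2, 5.02 and 6.66 CPM) were the sole present members, and P2ry1 varied over 4-fold.

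Cytokine receptors included the receptor gene with the highest level per kb of those listed, Il6st at 217 ± 25.9 CPM per kb. Il6st, the signalling subunit gp130, was counted at 2349.8, 2739, 2049 and 2490.2 CPM (2407 ± 288 CPM) and Lifr, its partner for LIF, at 1126, 1528, 1185 and 1314 CPM (1288 ± 178 CPM). Osmr, the oncostatin M receptor, stood at 611, 589, 537 and 535 CPM with a coefficient of variation of 6.71%, and Il31ra, which pairs with Osmr to bind interleukin 31, at 179, 169.6, 120.5 and 158 CPM. Il6st, Lifr, Osmr and Il31ra held 47.2% ± 0.42, 26.1% ± 2.0, 10.3% ± 1.09 and 6.01% ± 0.727 of the level of 30 cytokine receptors per kb. The share of Il6st was the steadiest among the leading members shown, ranging from 46.6 to 47.6%.

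Receptors for type 2 cytokines were present at lower levels, Il4ra at 18.9, 16, 12 and 13.3 CPM and Il13ra1 at 11.9, 16.6, 13.1 and 32.7 CPM. Interferon receptor genes Ifngr2, Ifnar1 and Ifnar2 had means of 37.4 ± 12.9 CPM, 33.3 ± 2.68 CPM and 11.8 ± 5.07 CPM. Il1r1, the interleukin 1 receptor, stood at 14.4, 10.5, 13.2 and 35.4 CPM. The TNF receptor Tnfrsf1a was scarce at 1.67, 0.539, 0.105 and 2.73 CPM, the interleukin 6 receptor chain Il6ra had a mean of 0.639 CPM, and the interleukin 33 receptor Il1rl1 was not counted.

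Growth factor receptors were led by Ngfr, the low-affinity neurotrophin receptor p75, at 832, 754, 368 and 752 CPM, with 48.6% ± 4.17 of the sum per kb. Ret, the signalling receptor for GDNF family ligands, was counted at 363, 486, 291 and 442 CPM, and its co-receptor for artemin, Gfra3, at 128, 83.4, 77.3 and 146 CPM. Per kb, Ret stood at 58.5 ± 12.7 CPM per kb. Gfra2, co-receptor for neurturin, was present but varied from 13.8 to 148 CPM, and Gfra1 stood at 56.4, 73.6, 34.9 and 33 CPM. Ntrk2 and Ntrk3, the receptors of mechanoreceptors and proprioceptors, had means of 3.63 ± 1.66 CPM per kb and 0.136 ± 0.126 CPM per kb. Erbb3, a receptor that Schwann cells express, varied from 1.46 to 25 CPM.

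Transcription factors of sensory neurons were present for 22 of 42. Klf7 was counted at 1569.6, 1684, 1491 and 1499 CPM and led the list in each library with 30.6% ± 2.8 of its level per kb. Prdm12, a regulator required for nociceptor development, stood at 380.3, 309, 170.04 and 335 CPM and ranked next per kb with 121 ± 36.7 CPM per kb. Ldb2 stood at 75.3 ± 17.3 CPM per kb and Etv1 at 38.8 ± 5.9 CPM per kb. Klf7 was one of the steadiest listed genes, with a coefficient of variation of 5.73%.

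The pan-sensory factors Pou4f1 and Isl1 were counted at 166, 240.3, 128 and 133 CPM and 38.4, 45.2, 27.4 and 54.8 CPM. Runx1, a factor of nociceptor lineages, stood at 163, 221, 180.1 and 154 CPM, and Runx3, which acts in proprioceptors, held no count. Shox2, of touch neurons, had a mean of 0.865 CPM. Ppargc1a and Mef2c varied from 8.81 to 39 CPM and from 10.04 to 59 CPM. The early factors Neurog1 and Neurog2 were not counted.

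Genes of transmitter transport and synthesis were present for 5 of 23. Slc17a6, the vesicular glutamate transporter VGLUT2, was counted at 242, 251, 272 and 308 CPM. It held 36% ± 5.46 of the level of its list per kb and led the list in replicates 1, 3 and 4, but not over transcript or coding length. The other vesicular glutamate transporters were nearly missing: Slc17a8 stood at 4.24, 0, 0 and 0.109 CPM and Slc17a7 held 1 count in all. Nos1, the neuronal nitric oxide synthase, was counted at 287, 399.6, 191 and 256 CPM and the choline transporter Slc5a7 at 19.1, 31.3, 30.6 and 27.7 CPM. The choline acetyltransferase gene Chat and the vesicular GABA transporter Slc32a1 were not counted. Tph2, which makes serotonin in central neurons, was counted at 31.9, 10.1, 0.209 and 0 CPM and the monoamine transporter Slc18a2 from 4.8 to 32.7 CPM.

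Genes of vesicle release were mostly present, with 10 of 17 synaptotagmins and 15 of 18 SNAREs and complexins. Snap25 was counted at 2329, 1801, 1886 and 1894 CPM and led its list in each library, followed per kb by Vamp2 (219.5 ± 51.4 CPM per kb) and, lower, by Cplx1 (50.7 ± 12.5 CPM per kb). Among synaptotagmins Syt11 and Syt4 stood at 141 ± 23.6 CPM per kb and 127 ± 10.5 CPM per kb, and Syt4 was one of the steadiest genes at 512, 539, 491 and 442 CPM. Syt4 led the list in replicate 3 and Syt11 in the others. Syt9 and the fast calcium sensor Syt1 followed with 45.3 ± 10.9 CPM per kb and 30.4 ± 3.87 CPM per kb. Cplx3 and Cplx4, of retinal ribbon synapses, were not counted.

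Cytoskeletal and pan-neuronal genes were present for 17 of 18. Besides Map1b and Nefl, Nefm was counted at 2305, 2114, 2216 and 1884 CPM and the heavy neurofilament gene Nefh at 355, 176, 259 and 179.7 CPM. Prph, the filament of small unmyelinated neurons, stood at 487, 372, 203 and 614 CPM. Per kb Prph reached 209.6 ± 87.3 CPM per kb, against 60.7 ± 21.1 CPM per kb for Nefh, and it was higher than Nefh in each library. Sncg, gamma-synuclein, stood at 327 ± 168 CPM per kb.

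Of 14 genes tied to axon injury 8 were present. Jun led in each library at 285, 322, 165 and 212 CPM, and Atf3, a factor induced in injured neurons, was counted at 36.7, 75.8, 36.9 and 83 CPM. The activity genes Egr1 and Fos stood at 282, 255, 134 and 108 CPM and 57, 60.1, 42.3 and 56.3 CPM. Sprr1a held counts in replicate 4 alone (4.04 CPM), and Npy, which injured DRG neurons can make, held none.

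Of the marker lists of sensory neuron classes, all 11 genes of the NP3 list were present and 14 of 15 of the peptidergic list (93.3%). For NP2 5 of 9 were present (55.6%) and for NP1 5 of 11 (45.5%), against 29.9% of protein-coding genes. Present members alone do not show which classes the pools held. Several genes stand in more than 1 list, and the NP3 list includes broadly expressed genes such as Jak1 (1550.4, 1387, 981 and 1329 CPM), Osmr and Npy2r. Over the libraries the peptidergic list summed to 3306, 3224, 2667 and 4112 CPM, NP3 to 2993, 2985, 2170.4 and 2759.8 CPM, NP2 to 728, 669.6, 914 and 1032 CPM and NP1 to 700.5, 922, 611 and 967 CPM. Sums of lists of unequal size show no order of cell numbers.

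Peptidergic genes beyond the 6 markers were present at Aqp1 199.7, 162, 102 and 218 CPM, Cd44 265, 257, 338 and 301 CPM and Gpx3 89.3, 67.4, 30.4 and 85.3 CPM. In the NP1 list the leading genes were P2rx3, Plxnc1 (399.6, 368, 368 and 464 CPM) and Gna14 (107, 100.01, 75.1 and 133 CPM), while Mrgprd, Lpar3, Lpar5, Agtr1a, Mmp25 and Grik1 were scarce. Lpar3 stood at 3.01, 24.3, 4.49 and 5.57 CPM and Mmp25 varied from 2.19 to 27.9 CPM. In the NP2 list Mrgprb4, Mrgpra1, Mrgprb5 and Ptpn6 were scarce, and Carhsp1 was present at 70.6, 53, 28.3 and 104 CPM.

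The lists of other classes also hold broadly expressed genes. They summed to 361, 464, 293 and 252 CPM for low-threshold C fibres, 158, 127, 51.9 and 249 CPM for cold-sensing neurons and 1436, 1416, 1405 and 1417 CPM for myelinated neurons. Of the list for low-threshold C fibres, Th stood at 6.47, 9.97, 0.836 and 3.6 CPM, Slc17a8 at 1.09 ± 2.1 CPM and Fam19a4 at 0.633 ± 0.938 CPM, and only Gfra2 and Piezo2 were present. Of the cold-sensing list, Rgs3 and Trpm8 were present, Rgs3 varying from 40.4 to 240.02 CPM, while Penk and Foxp2 had means of 0.0819 and 0.985 CPM. In the list of myelinated neurons 6 of 17 were present, Nefh, Ret, Etv1, Kcna1, Cntnap2 and Ntrk2. Of its other members 9 were scarce, among them Pvalb (0, 0.674, 1.57 and 2.95 CPM), Spp1 (3.01, 5.26, 1.15 and 0 CPM) and Ntrk3 (0.112, 2.7, 4.39 and 9.17 CPM). Runx3 and Calb2 were not counted.

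Genes of the satellite glia and Schwann cell lists were counted in every library, at uneven levels. Of 12 satellite glia genes 8 were present, summing to 702, 701, 383 and 372 CPM, with Fabp7 at 136, 93.1, 50.6 and 51.7 CPM, Glul at 271, 239, 105 and 158 CPM and Apoe at 65.9, 54.2, 27.1 and 34.7 CPM. Of 12 Schwann cell genes 5 were present, summing to 986, 827, 621 and 701 CPM, of which Pmp22 alone gave 607, 375, 434 and 449.8 CPM. The myelin genes Mbp and Mal ranged from 34 to 149 CPM and from 3.28 to 38.1 CPM. Satellite glia sums were higher in replicates 1 and 2 than in 3 and 4. Kcnj10, the potassium channel of satellite glia, stood at 20.5, 93.1, 16.3 and 16.1 CPM, highest in replicate 2. Sox10, expressed by both glial types, was scarce at 4.91, 5.12, 2.19 and 2.29 CPM.

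Fibroblast genes were present for 2 of 9 and summed to 356, 441, 74.7 and 107 CPM, again higher in replicates 1 and 2. Apod varied from 8.36 to 97.3 CPM, Col1a1 from 3.24 to 79.9 CPM, Col1a2 from 1.97 to 67.7 CPM and Col3a1 from 1.05 to 61.5 CPM, while Dcn stood at 71.6, 116, 41.1 and 42.5 CPM. Of the vessel list only Rgs5 was present, at 168, 153, 190.1 and 336 CPM, and the endothelial genes Pecam1 and Cldn5 had means of 3.33 and 0.0558 CPM. Flt1 and Notch3 varied from 0.874 to 24.9 CPM and from 0.105 to 26.8 CPM. No gene of the leukocyte, mast cell, erythroid, muscle or central glia lists was present. The leukocyte list summed to 22.2, 32.3, 8.57 and 5.35 CPM and the mast cell list to 2.79, 1.89, 1.25 and 2.84 CPM, with Mcpt4, Tpsb2 and Fcer1a at 0. The part of these cells in the levels of genes they share with neurons was not tested.

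Pituitary hormone genes stood out by their pattern over libraries. Their list summed to 1908, 1783, 1349.6 and 0 CPM, most of it Gh and Prl in each of replicates 1 to 3, with 0 counts of any of the 8 genes in replicate 4. Pomc held 1501, 468, 7 and 0 counts, Fshb 1014, 87, 0 and 0 and the pituitary factor Pou1f1 193, 122, 39 and 0, in replicates 1 to 4. Gh was highest in replicate 1 and Prl in replicate 3. Lhb was not counted. Among central glia genes, Mobp varied from 0.109 to 56.2 CPM, highest in replicate 2. The origin of these counts was not tested.

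**Figure D5:**
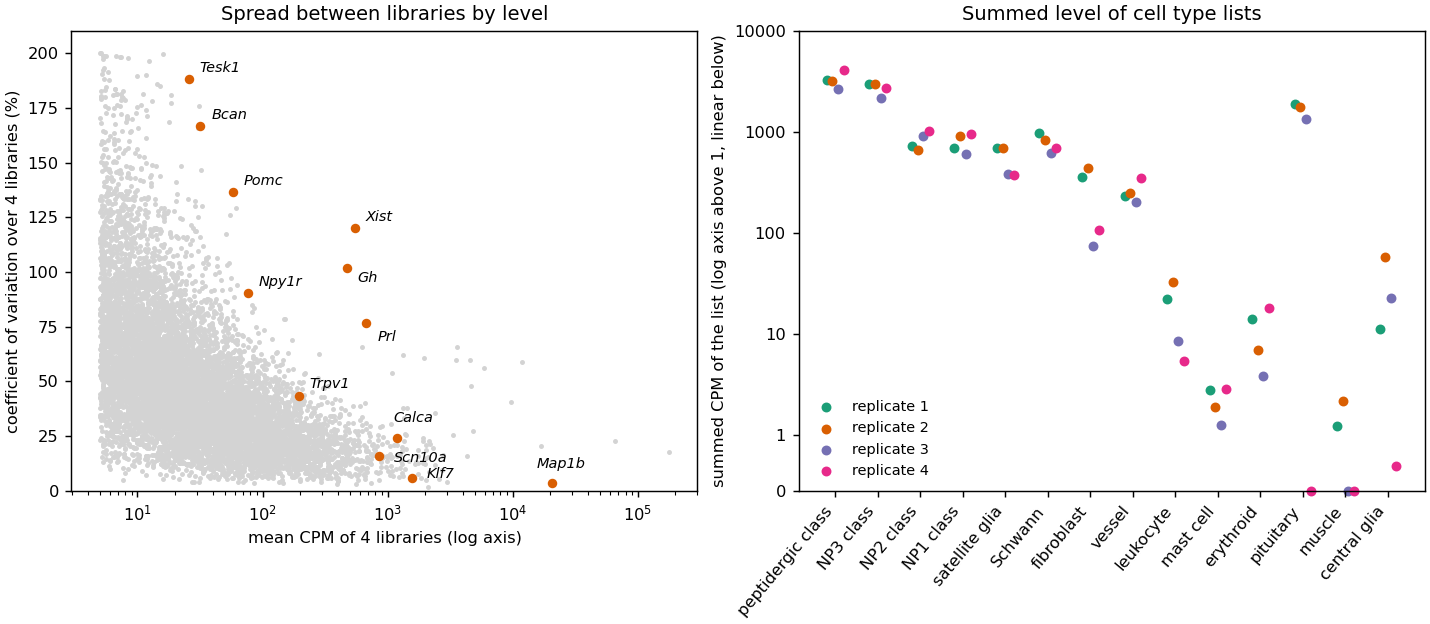
Left, coefficient of variation over the 4 libraries (vertical axis, percent) against mean CPM (horizontal axis, logarithmic) for genes with a mean of at least 5 CPM, 1 point per gene. Right, summed CPM (vertical axis, logarithmic above 1) of 14 cell type lists in each library: the pituitary list lies between 1349.6 and 1908 CPM in replicates 1 to 3 and at 0 in replicate 4.

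The counts of the libraries were compared in pairs to see whether any library had been deposited more than once. The chi-square statistic of each of the 6 pairs divided by its degrees of freedom lay between 35 and 70.5, above the value near 1 that counting error alone would give. Across the 6508 present genes, Pearson correlations of log2(CPM + 1) ran from 0.857 to 0.891 with a median of 0.879. These are across genes, which share libraries and are not independent replicates. The common biological coefficient of variation, edgeR's estimate of the spread of a gene beyond counting error, was 49.6% over 9029 genes. By level, the median coefficient of variation was taken over present genes outside the mitochondrial genome. Genes with a library under 5 CPM were thus left out, which limits the spread that low-level genes can show. The median fell from 41.8% at 5 to 20 CPM to 36.7% at 20 to 100 CPM. It was 22.4% at 100 to 500 CPM and 16.5% above. Counting alone would give medians of 8.82%, 5.27%, 2.65% and 1.17% in the same order.

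A few genes held a large part of each library. The 50 genes with the highest mean CPM took 37.3%, 37.1%, 49.2% and 39.6% of the counts (40.8% ± 5.7). Leaving mitochondrial genes out of the totals and the list brought the mean to 17.2%. Mitochondrial ribosomal RNA alone held 31.2% in replicate 3 and between 21.1% and 23.7% in the others.

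The steadiest listed genes with a mean of at least 100 CPM were Map1b (3.7%), Klf7, Osmr, Kcnh7, Scg3 (7.41%), Cacna2d1, Syt4 (8.27%) and Nefm (8.53%). They include a transcription factor, a cytokine receptor, 2 channel genes and a granin along with cytoskeletal and synaptic genes. Their steadiness holds for CPM of the full totals. With mitochondrial genes left out of the totals, replicate 3 held the highest value of each of these genes. At a mean of at least 20 CPM, the 15 genes with the widest ratio of highest to lowest library (on CPM + 1) included 2 that follow sex. Xist, which silences an X chromosome in females, held 0, 0, 12659 and 7994 counts and the Y-linked gene Ddx3y 361, 328, 0 and 0 in replicates 1 to 4. Replicates 1 and 2 thus held Y-linked but no Xist counts, and replicates 3 and 4 the reverse.

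Gh, Prl, Pomc and Fshb were 4 of the others, and Pappa2, a protease of IGF binding proteins, had the same order of libraries as Gh with 49.3, 38, 2.61 and 0 CPM. The rest were genes of varied function. Ddit3, the stress factor CHOP, stood at 48.5, 105, 2.19 and 22.4 CPM, lowest in replicate 3. Bcan, a brain proteoglycan, stood at 5.58, 112, 2.4 and 8.08 CPM and was high in replicate 2 alone. Tesk1, a kinase, stood at 2.68, 1.48, 0.418 and 98.4 CPM, high in replicate 4 alone, and Mmadhc, of cobalamin metabolism, at 24.1, 1.08, 12.2 and 78.6 CPM. Coq5, of ubiquinone synthesis, stood at 68, 50.3, 3.76 and 0.655 CPM, with replicates 1 and 2 above 3 and 4. Zfyve26 and the ubiquitin ligase Rnf185 ranged from 1.2 to 76.4 CPM and from 1.97 to 87.3 CPM, and the collagen gene Col3a1 stood at 36.8, 61.5, 1.05 and 29.7 CPM.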

How the data were processed

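The authors deposited 1 table of raw read counts by gene symbol, with a column per sample. Only the 4 Trpv1 columns, matched to samples by name, were used, and 0 columns had no sample. Per the submitters' processing notes, bcl2fastq 2.17, Trimmomatic 0.33 and featureCounts were used with the build GRCm38. The aligner, the annotation, the strand setting and the handling of multi-mapped reads were not given in the sources used here. Per the labels' protocols, RNA from picked cells (PicoPure kit) went through Ovation RNA-seq V2 amplification and a Nextera XT library step.

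CPM was computed as count over column total. Exon lengths (union of exons) came from GENCODE M21 on GRCm38, where 39471 of 43372 symbols were found. R 4.3.3 with edgeR 4.0.16 gave TMM factors and the common biological coefficient of variation, after edgeR's expression filter at a minimum count of 10, with no group compared. On simulated counts with true values of 20%, 40% and 70%, the estimate was 19.8% (11767 genes), 39% (11244 genes) and 65.5% (9798 genes). No pairing was used. The members and the 55 gene lists (694 genes found) were chosen with earlier results of these data known. Galr3 and Vamp7 matched no symbol. Named genes were the 6 markers and the 20 highest protein-coding genes per kb (mitochondrial, ribosomal protein and predicted genes left out). From each list came the 4 highest present members and up to 3 members under 1 CPM. Members whose highest library exceeded 4 times the lowest in CPM, at a mean of at least 10 CPM, were also named. So were the 15 genes with the widest ratio (CPM + 1) at a mean of at least 20 CPM. The last were the 8 steadiest listed genes at a mean of at least 100 CPM. Some genes that these rules select are not reported here, and some further listed genes were named after their values were seen. Alternatives were detection at 1 or 10 CPM, TMM or RLE scaling, totals without mitochondrial genes, other gene lengths, other filters and pseudocounts, and leaving out each library.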

Additional observations from a re-analysis of the deposited data

Results flagged for a closer look

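Of 343 genes and library measures with 4 values each, 46 had 1 library far from the other 3, with a gap that took up most of the whole range (above the 95% critical value of Dixon for 4 samples). The rate of about 1 of 20 groups that chance gives for this value does not apply here. A gene counted in 1 library alone always has such a gap, and some genes were named for their wide range between libraries. Genes of 1 library are also not independent of each other. The 46 are therefore a description and are not set against chance. Protein genes of the mitochondrial genome took 9.04% of the counts in replicate 3, against 4.32% to 4.36% in the others. All gaps below are for CPM of the full totals. With mitochondrial genes left out of the totals, some no longer reached the critical value, and these genes are named below. For the other genes, the part of this share in the CPM was not tested.

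Replicate 1 was higher than the other 3 libraries for Chrna1 (2.9 CPM against 0 to 0.27 CPM), Cnr1 (105 CPM against 47.8 to 53.2 CPM), Adcyap1r1 (33.2 CPM against 0 to 0.27 CPM) and Slc17a8 (4.24 CPM against 0 to 0.109 CPM). It was likewise higher for Fshb (113 CPM against 0 to 11.7 CPM) and Ywhab (1683 CPM against 1126 to 1198 CPM). With mitochondrial genes left out of the totals, the gap of Ywhab no longer reached the critical value. Counted in this library alone were Cacna1i (0.223 CPM), Grin2b (0.669 CPM), Grin2c (0.446 CPM) and Cldn5 (0.223 CPM).

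Replicate 2 was higher than the other 3 libraries for Kcnc4 (87.7 CPM against 18.6 to 29.3 CPM), Glra2 (9.3 CPM against 0 to 0.558 CPM), Lpar3 (24.3 CPM against 3.01 to 5.57 CPM) and Lpar6 (62.7 CPM against 1.23 to 4.8 CPM). It was likewise higher for Cysltr2 (383 CPM against 149 to 170.5 CPM), Kcnj10 (93.1 CPM against 16.1 to 20.5 CPM) and Bcan (112 CPM against 2.4 to 8.08 CPM). Counted in this library alone were Trpv3 (0.27 CPM) and Asic4 (1.75 CPM).

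Replicate 3 was higher than the other 3 libraries for Kcnd2 (1.57 CPM against 0 to 0.223 CPM) and Cdr1 (1233 CPM against 410.2 to 427 CPM). Replicate 3 was lower than the other 3 libraries for Cacna1c (342 CPM against 421 to 436 CPM), Gabbr2 (157 CPM against 234 to 243 CPM), Syt1 (205 CPM against 267 to 273 CPM) and Reep5 (1350.3 CPM against 1751 to 1829 CPM). With mitochondrial genes left out of the totals, the gaps of Cacna1c, Gabbr2, Syt1 and Reep5 no longer reached the critical value. Counted in this library alone were Grp (0.941 CPM), Trpv4 (0.418 CPM), Stoml3 (0.105 CPM), Gabra4 (0.105 CPM), Npy5r (0.523 CPM), Ramp1 (0.523 CPM), Htr1d (0.105 CPM) and Slc17a7 (0.105 CPM).

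Replicate 4 was higher than the other 3 libraries for Nts (69 CPM against 25.2 to 29.99 CPM), Best1 (49.1 CPM against 0 to 0.335 CPM), Npy1r (179.6 CPM against 34.6 to 48.7 CPM) and Htr2b (4.48 CPM against 0.558 to 0.944 CPM). It was likewise higher for Il1r1 (35.4 CPM against 10.5 to 14.4 CPM), Map1b (21597 CPM against 20016 to 20196 CPM), Sncg (491 CPM against 180.4 to 228 CPM) and Tesk1 (98.4 CPM against 0.418 to 2.68 CPM). For Map1b this did not hold with mitochondrial genes left out of the totals. For Nts and Il1r1 replicate 4 then stayed highest, but the gap no longer reached the critical value. Counted in this library alone were Pdyn (0.109 CPM), Cnr2 (0.218 CPM), Htr7 (0.655 CPM) and Sprr1a (4.04 CPM).

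The genes counted in 1 library alone lie under 5 CPM, where a few reads decide the value.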

How the results depend on the processing

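The count of present genes, 6508, became 9179 at a threshold of 1 CPM, 5117 at 10 CPM, 6547 with TMM or RLE scaling and 7234 with mitochondrial genes out of the totals, and 6701 to 6960 when 1 library was left out. The share of the 50 leading genes was 17.2% without mitochondrial genes, the alternative that removes the largest genes, and 38.1% to 42.1% when 1 library was left out. The common biological coefficient of variation was 51% on column totals, 99.7% over all 19584 genes with a count and 39.2% over the 6508 present genes, and 49% to 51.5% when 1 library was left out. The median correlation between libraries was 0.903 over all genes with a count and 0.868 to 0.887 when 1 library was left out. Among the 55 lists, the number of present members moved by more than 1.5 times in 11 at 1 CPM, in 6 at 10 CPM and in 3 without mitochondrial genes in the totals. Of 337 named genes, the mean CPM moved by its SD or more in 174 with mitochondrial genes out of the totals. It moved so in 31 with TMM scaling and in 31 with RLE scaling. When 1 library was left out, 124 of these means moved and 1224 did not. The share of the leading member moved by more than its SD in 24 lists over the longest coding sequence and in 13 over the longest transcript, so levels per kb depend on the length used. Depth limits statements on scarce genes, since 1 count is worth 0.105 to 0.135 CPM. No paired analysis was possible because the description covers 1 group and tests no groups against each other.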
